A study of Mus musculus with 12 samples.

Results

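Lbhd2, Ppm1j and Stag3 are 3 lowly expressed genes of the 47069 in the count table, chosen by their measured levels, because each stood much higher in every library labelled as a conditional Hdac2 knockout than in every wild-type library. That genotype difference is described below and not tested, while the effect of the drug, which played no part in the choice, is tested. The sizes and SEs given for the genotype difference come from the values that made the choice. The sizes may therefore be too large, and neither sizes nor SEs serve as a test. The 12 RNA-seq libraries come from bilateral frontal cortex of C57BL/6 males and form 4 groups of 3: labelled knockout with clozapine at 10 mg/kg (libraries 3, 4 and 5), labelled knockout with vehicle (2, 4 and 5), wild type with clozapine (2, 3 and 5) and wild type with vehicle (1, 3 and 4). The labelled knockout carries HDAC2(loxP,loxP) and CamKIIa-Cre(+,-). Hdac2 encodes a histone deacetylase, and CamKIIa-Cre drives recombination in forebrain excitatory neurons, so other cells of the tissue keep the gene. Clozapine is an antipsychotic drug, given chronically. The labels do not give the animals' age, nor whether the wild type mice carried loxP sites or Cre.

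Hdac2 itself was at 70.5 to 76.6 CPM (counts scaled to library size) in the 6 labelled knockout libraries and at 63.4 to 75.7 CPM in the 6 wild-type libraries. The groups overlap, and the counts, taken over the whole gene, cannot show whether some exons were removed. Genotype is therefore written as labelled, and every genotype direction rests on the labels. Camk2a, which marks the neurons where Cre acts, was at 3574 to 4610 CPM in the labelled knockout and at 3687 to 4519 CPM in wild type. Total counts per library lie between 23408372 and 28069638, and 17286 genes had enough counts to be tested, all 3 members among them. In bulk tissue, fewer cells of a type and less RNA per cell cannot be told apart.

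The 3 genes have unlike known roles. Stag3 encodes a subunit of cohesin, the ring that holds sister chromatids together, in the form used in meiosis. It belongs to the genes that somatic cells keep silent, and in mouse the repressor E2F6 takes part in that silencing. Ppm1j encodes a protein phosphatase of the PP2C family, also called PP2Czeta, first described in mouse testicular germ cells. Lbhd2 encodes a small protein named for its LBH domain, and its role is not given here. Histone deacetylases act within repressor complexes at promoters, where they remove acetyl groups from histones.

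The members lie on 3 chromosomes, none of them chromosome 10, which carries Hdac2. Positions are those of GRCm38. Lbhd2 (ENSMUSG00000087075.1) is on chromosome 12, 111406809 to 111412090, Ppm1j (ENSMUSG00000002228.7) on chromosome 3, 104781056 to 104786018, and Stag3 (ENSMUSG00000036928.14) on chromosome 5, 138280240 to 138312393. All 3 are protein-coding genes of the plus strand, with exons that cover 670, 1814 and 5733 bases. The sequences below are shown because a search of the promoters found the same short motif, TCCCGC, in all 3. They are RefSeq promoter windows of build GRCm38.p6, plus strand, from 250 bases before the start to the first 30 transcribed bases, and all 3 members matched. They cover chr12:111406559-111406838, chr3:104780806-104781085 and chr5:138280259-138280538. For Lbhd2 and Ppm1j the RefSeq start is the start of the gene given above. For Stag3 it lies further in, so the whole Stag3 window is within the annotated gene. Capitals mark TCCCGC, the core of E2F sites, on either strand (GCGGGA), and the E-box CACGTG.
Lbhd2: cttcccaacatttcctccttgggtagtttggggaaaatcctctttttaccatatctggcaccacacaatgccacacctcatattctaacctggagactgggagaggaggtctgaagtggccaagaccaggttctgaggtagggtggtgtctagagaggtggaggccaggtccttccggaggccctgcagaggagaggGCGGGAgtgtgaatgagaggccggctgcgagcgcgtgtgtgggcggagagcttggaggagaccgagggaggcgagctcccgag
Ppm1j: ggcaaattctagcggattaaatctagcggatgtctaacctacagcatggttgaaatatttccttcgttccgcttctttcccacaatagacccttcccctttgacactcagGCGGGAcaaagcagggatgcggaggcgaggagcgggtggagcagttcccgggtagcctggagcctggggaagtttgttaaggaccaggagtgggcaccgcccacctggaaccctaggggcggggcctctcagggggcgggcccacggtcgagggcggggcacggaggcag
Stag3: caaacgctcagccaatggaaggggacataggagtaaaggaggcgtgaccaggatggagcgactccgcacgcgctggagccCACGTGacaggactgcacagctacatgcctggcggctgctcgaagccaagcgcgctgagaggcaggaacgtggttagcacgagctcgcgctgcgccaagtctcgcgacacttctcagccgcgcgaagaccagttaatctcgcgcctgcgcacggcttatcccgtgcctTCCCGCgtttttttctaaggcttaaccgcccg

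Each of these windows holds 1 TCCCGC match on either strand, as do 18.8% of the 32851 RefSeq promoter windows of this length. The match starts 53 bases before the RefSeq start in Lbhd2 and 140 bases before it in Ppm1j. In Stag3 the match runs from 2 bases before the RefSeq start to base 4 after it, within the annotated gene. CACGTG was found in the Stag3 window, starting 170 bases before the RefSeq start, and is in 6.79% of all windows. The GC box GGGCGG (or CCGCCC) was in all 3 windows and in 34.7% of all. It was found 2 times in Lbhd2, where 1 copy overlaps the TCCCGC match, 4 times in Ppm1j and 1 time in Stag3. The Stag3 window holds 30 CpG dinucleotides, the Ppm1j window 16 and the Lbhd2 window 10, against a median of 6, and 90.8% of all windows hold fewer than that of Stag3. All 3 motifs contain CpG, and the shares over all windows are not matched for CpG content. These matches describe letters and do not show that a factor binds.

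Lbhd2 had the widest separation of the genotypes. It was at 2.93, 2.67 and 3.23 CPM in labelled knockout with clozapine and at 4.0, 3.57 and 3.39 CPM in labelled knockout with vehicle. In wild type it was at 0.420, 0.422 and 0.293 CPM with clozapine and at 0.305, 0.423 and 0.357 CPM with vehicle. Every labelled knockout library was far above every wild-type library, with 63 to 98 counts against 7 to 11 counts. The log2 difference averaged over treatments was 3.13 (SE 0.15), or 8.73-fold. It was 2.94 with clozapine and 3.31 with vehicle.

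Ppm1j was at 3.42, 2.96 and 3.02 CPM in labelled knockout with clozapine and at 3.79, 3.15 and 2.84 CPM in labelled knockout with vehicle. Wild-type libraries had 0.588, 0.760 and 0.794 CPM with clozapine and 0.827, 0.884 and 0.754 CPM with vehicle. The genotypes stood apart in all libraries, while the 2 treatments overlapped within each genotype. The log2 difference between genotypes was 2.05 (SE 0.13), or 4.15-fold, with 2.13 under clozapine and 1.98 under vehicle.

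Stag3 separated by treatment as well as by genotype. It was at 2.43, 2.79 and 1.90 CPM in labelled knockout with clozapine and at 3.18, 5.47 and 3.36 CPM in labelled knockout with vehicle. In wild type it was at 0.546, 0.591 and 0.543 CPM with clozapine and at 0.914, 1.08 and 1.03 CPM with vehicle. The 4 groups did not overlap: labelled knockout with vehicle was highest, then labelled knockout with clozapine, wild type with vehicle, and wild type with clozapine. The log2 difference between genotypes was 2.03 (SE 0.18), or 4.07-fold, and was 2.07 under clozapine and 1.98 under vehicle.

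**Figure D1:**
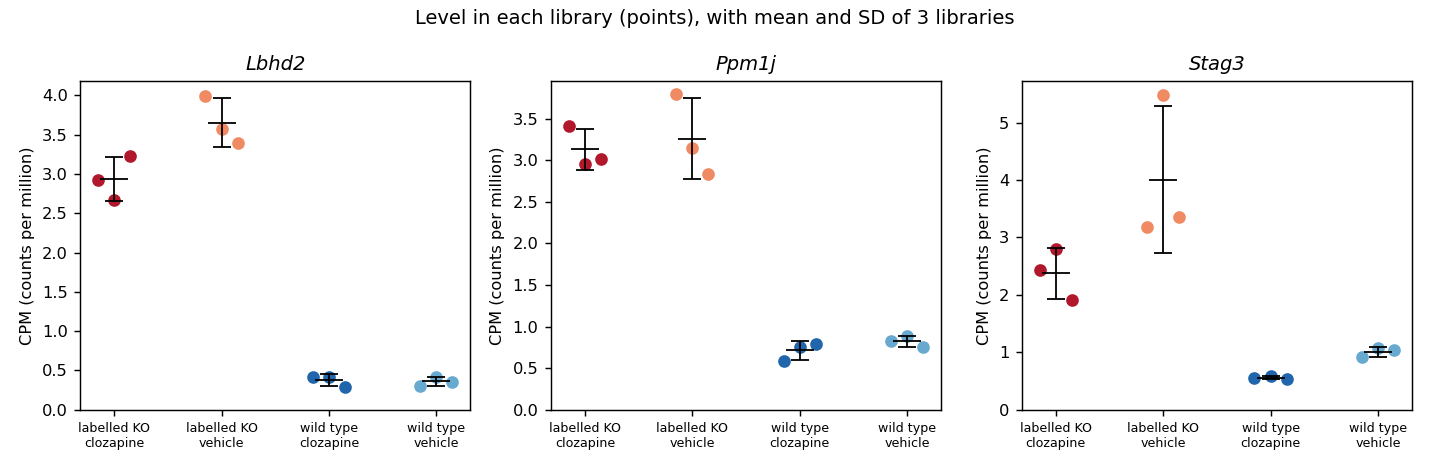
Level of Lbhd2, Ppm1j and Stag3 in CPM in each of the 12 libraries (points), by group, with the mean and SD of 3 libraries in black. All labelled knockout libraries sit above all wild-type libraries in each panel, and in the Stag3 panel the clozapine libraries sit below the vehicle libraries of the same genotype.

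Over all genes tested, 2.48% had every labelled knockout library above every wild-type library and 1.57% had every one below. All 3 members belong to the first kind, as the way they were chosen requires, so nothing is read from that count. By edgeR's quasi-likelihood test at an adjusted p under 0.05, 10.5% of genes were called for genotype, 5.52% higher and 5.01% lower in the labelled knockout.

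In wild type the order of the members changes when levels are set relative to exon length. Mean CPM there was 0.370 for Lbhd2, 0.768 for Ppm1j and 0.784 for Stag3. In the labelled knockout the order stays the same, with mean CPM of 3.30, 3.20 and 3.19. Lbhd2 was at 4.92 ± 0.71 CPM per kb of exon in the labelled knockout and 0.552 ± 0.091 in wild type (SD, n = 6 each). Ppm1j was at 1.76 ± 0.19 and 0.423 ± 0.055 CPM per kb, and Stag3 at 0.556 ± 0.216 and 0.137 ± 0.044 CPM per kb, in labelled knockout and wild type. For comparison on the same scale, Hdac2 was at 16.4 ± 0.53 CPM per kb in the labelled knockout and 16.0 ± 1.03 in wild type. The wild-type values rest on few reads. In each of the wild-type groups, the spread of the 3 genes between libraries (CV 4.76% to 19.6%) was smaller than counting alone gives on average at those counts (20.0% to 33.3%). The CV of Stag3 in labelled knockout with vehicle was 31.9%, where counting gives 9.89%.

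Clozapine left Ppm1j without a detectable difference in either genotype. Its log2 change was -0.05 in the labelled knockout (95% interval -0.38 to 0.27, edgeR adjusted p = 0.938) and -0.20 in wild type (-0.76 to 0.36, edgeR adjusted p = 0.839). Lbhd2 was lower with clozapine than with vehicle in all labelled knockout libraries, as were 8.97% of all genes tested. Its log2 change there was -0.31 (SE 0.15, 95% interval -0.62 to 0.0019) and did not pass (edgeR adjusted p = 0.413). In wild type its change was 0.06 (95% interval -0.77 to 0.88, edgeR adjusted p = 0.976), an interval that also holds the value of the labelled knockout. Averaged over the genotypes, Lbhd2 and Ppm1j each had a log2 change of -0.13 (edgeR adjusted p = 0.880 and 0.821).

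Stag3 was lower with clozapine in both genotypes, but did not pass the threshold over all genes. Its mean was 2.38 ± 0.45 CPM with clozapine and 4.0 ± 1.28 CPM with vehicle in the labelled knockout, and 0.560 ± 0.027 with clozapine and 1.01 ± 0.084 with vehicle in wild type (SD, n = 3 each). The log2 change was -0.75 in the labelled knockout (SE 0.20, 95% interval -1.17 to -0.32, edgeR adjusted p = 0.134) and -0.84 in wild type (SE 0.31, 95% interval -1.49 to -0.19, edgeR adjusted p = 0.256). Averaged over both genotypes it was -0.80, a level of 0.576 times that with vehicle (SE 0.18, 95% interval -1.18 to -0.41). By edgeR the unadjusted p was 0.00049, place 75 among 17286 genes, and the adjusted p was 0.112.

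The call for Stag3 depends on the method. In the labelled knockout edgeR called it with no low-count filter (log2 change -0.75, adjusted p = 0.030), where 213 of 29376 genes were called. With a replicate block edgeR also called Stag3 (log2 change -0.88, adjusted p = 0.034), where 174 genes were called. The main edgeR fit called 4 genes. The adjusted p ran from 0.030 to 0.212 over 7 alternative fits. Averaged over genotypes, DESeq2 called it (log2 change -0.80, adjusted p = 0.041), and so did edgeR with no low-count filter (adjusted p = 0.0084). These fits called 160 and 157 genes for that average, against 26 in the main edgeR fit. The adjusted p for the average ran from 0.0084 to 0.184 over 7 alternative fits. Leaving out 1 library at a time gave edgeR adjusted p values of 0.063 to 0.233. In the labelled knockout the change was -0.46 without vehicle library 4, the library with the highest Stag3 level. At threshold 0.05 the main edgeR fit called 0.0231% of genes for clozapine in the labelled knockout, 0.816% in wild type and 0.15% averaged. It called 0 of the 3 members in any of these. By direction, 0.0116% were higher and 0.0116% lower in the labelled knockout, and 0.0521% were lower on average. All clozapine libraries were below all vehicle libraries for 8.97% of genes in the labelled knockout, for 8.23% in wild type and for 0.544% in both, and Stag3 is among the last.

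The effect of clozapine was not shown to differ between the genotypes for any member. The interaction (the clozapine effect of labelled knockout less that of wild type) was -0.37 for Lbhd2 (95% interval -1.23 to 0.50, edgeR adjusted p = 0.767), 0.15 for Ppm1j (-0.45 to 0.74, edgeR adjusted p = 0.879) and 0.10 for Stag3 (-0.66 to 0.85, edgeR adjusted p = 0.947). Over all genes 0.654% were called. The wild-type libraries hold 7 to 28 counts of each gene.

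**Figure D2:**
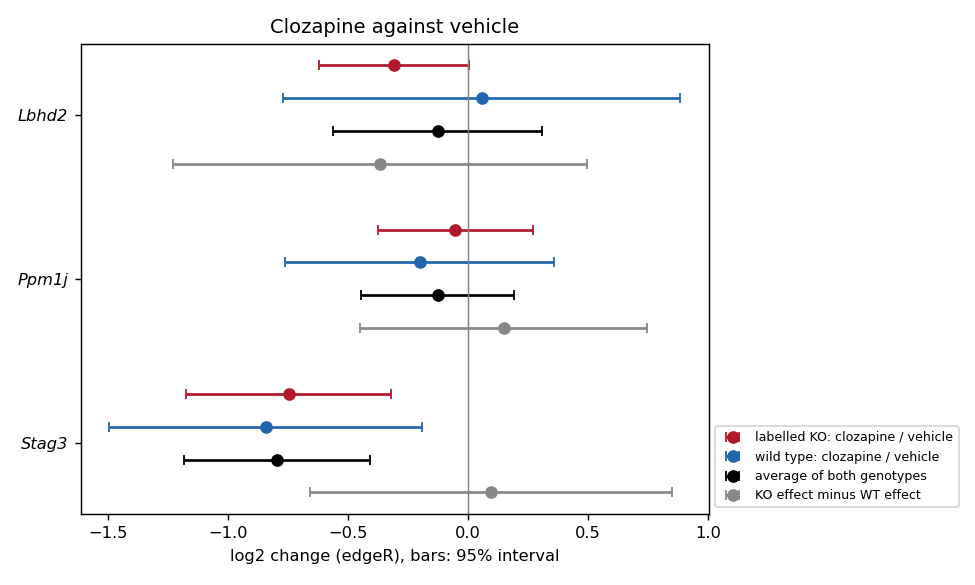
Log2 change with clozapine against vehicle (x axis) for each member in the labelled knockout, in wild type and averaged, and the difference of the effects, with 95% intervals from edgeR. The Stag3 intervals within genotypes, -1.17 to -0.32 and -1.49 to -0.19, lie below 0, and those of Ppm1j include 0.

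Genes beside the members were compared next, to see whether whole stretches of chromosome differed. The gene that overlaps Ppm1j differed with it. Fam19a3, which encodes a secreted chemokine-like protein, runs on the minus strand and shares 785 bases with the start of Ppm1j, head to head, with 0 shared exon bases in the annotation. Fam19a3 had 10 to 31 counts in the labelled knockout libraries and 0 to 6 in the wild-type libraries, or 0.826 ± 0.322 CPM and 0.136 ± 0.087 CPM (SD, n = 6 each). Its log2 level rose by 2.56 (SE 0.37, edgeR adjusted p = 0.00046). Whether the counting used strand is not stated, so reads of Fam19a3 and Ppm1j in the overlap cannot be told apart.

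The nearest neighbour of Stag3 did not pass the test. Gpc2, which encodes a cell-surface heparan sulfate proteoglycan, starts 234 bases away on the other strand. Gpc2 was at 0.800 ± 0.203 CPM in the labelled knockout and 0.635 ± 0.188 CPM in wild type (SD, n = 6 each), with a log2 difference of 0.32 (SE 0.23, edgeR adjusted p = 0.418). Of the 23 genes tested within 500 kb of Stag3, 0 were called for genotype, where 10.5% of all genes tested were called. The log2 differences of these 23 genes ran from -0.19 to 0.32, with a median of -0.017. Of the 9 genes tested around Ppm1j only Fam19a3 was called, a share near that of all genes. The next gene downstream, Rhoc, a small GTPase gene 2356 bases away, had a log2 difference of 0.11 (edgeR adjusted p = 0.432).

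Around Lbhd2, 1 of 22 tested genes was called, where 10.5% of all genes tested were called. Amn encodes amnionless, a partner of cubilin in vitamin B12 uptake. It was at 16.4, 14.3 and 11.7 CPM with clozapine and 14.6, 16.2 and 14.4 CPM with vehicle in the labelled knockout, against 6.93, 9.20 and 9.95 CPM with clozapine and 8.05, 7.65 and 9.04 CPM with vehicle in wild type. The genotypes did not overlap, and Amn rose by 0.79 in log2 terms (SE 0.09, edgeR adjusted p = 0.00013). The genes on either side of Lbhd2 did not pass: Exoc3l4, 4926 bases downstream, had a log2 difference of -0.11 (edgeR adjusted p = 0.762) and Cdc42bpb, a kinase gene upstream, one of 0.05 (edgeR adjusted p = 0.463).

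**Figure D3:**
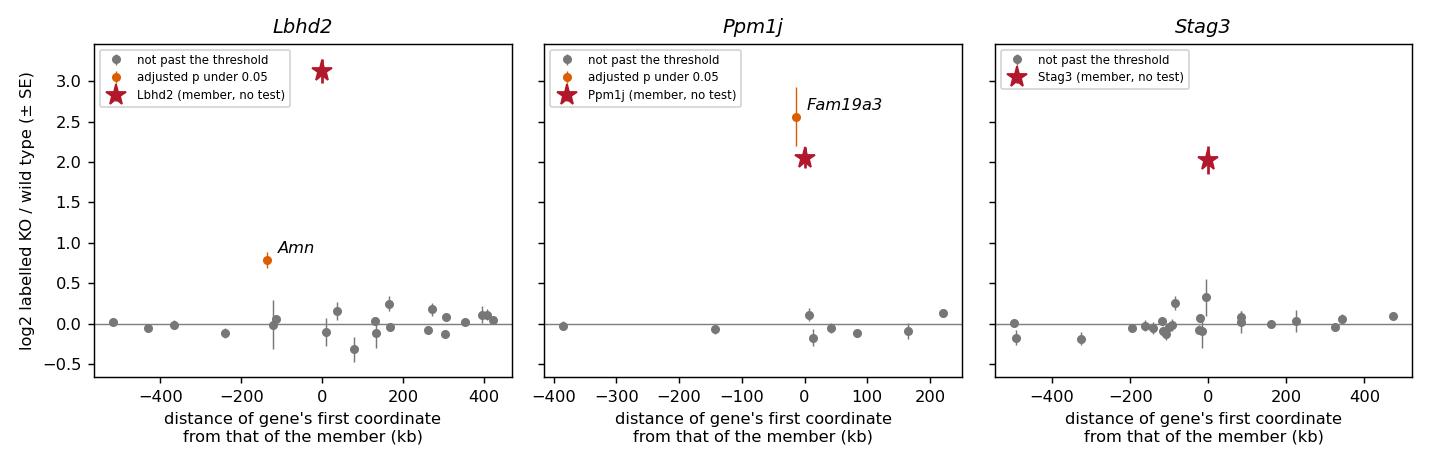
Log2 difference between labelled knockout and wild type (y axis, ± SE) of each tested gene within 500 kb of a member, against its distance in kb (first coordinate to first coordinate). Fam19a3 at 2.56 and Amn at 0.79 are the genes past the threshold, and the other neighbours lie between -0.32 and 0.32.

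The closest relatives of Lbhd2 and Ppm1j were called at a share near that of all genes, 5.52% of which were called higher and 5.01% lower. Lbh and Lbhd1, the other LBH domain genes, had log2 differences of -0.0026 and -0.15 between the genotypes (edgeR adjusted p = 0.984 and 0.422). Of 17 tested PP2C family phosphatases other than Ppm1j, 0 rose and 2 fell, with a median of -0.05 against -0.0033 over all genes tested. Ppm1h, a close relative of Ppm1j, was at 96.4 ± 7.26 CPM in the labelled knockout and 112 ± 13.8 CPM in wild type (SD, n = 6 each) and fell by 0.21 (SE 0.05, edgeR adjusted p = 0.016). Pdp1, which activates pyruvate dehydrogenase, fell by 0.29 (SE 0.07, edgeR adjusted p = 0.031).

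Of 16 tested cohesin subunits and regulators other than Stag3, 1 rose and 2 fell, with a median of -0.05, where 5.52% of all genes were called higher and 5.01% lower. Rad21l, the meiotic counterpart of Rad21, rose by 1.10 in log2 terms (SE 0.33, edgeR adjusted p = 0.040). Its counts are low, 6 to 16 in the labelled knockout and 3 to 8 in wild type, and the genotypes overlap. Stag1, a somatic counterpart of Stag3, was at 24.8 ± 1.55 CPM in the labelled knockout and 27.9 ± 2.16 CPM in wild type (SD, n = 6 each) and fell by 0.17 (SE 0.05, edgeR adjusted p = 0.047). Mau2, which loads cohesin on chromatin, fell by 0.15 (SE 0.04, edgeR adjusted p = 0.013). Stag2, the other somatic counterpart, had a log2 difference of -0.10 and did not pass (edgeR adjusted p = 0.224). Smc1b, a further meiotic subunit, had 0 to 5 counts in the labelled knockout libraries and 1 to 4 in wild type, too few to be tested.

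Other germline genes were called about as often as genes in general, 10.5% of which were called. Among 11 tested meiosis genes, 0 rose and 1 fell, with a median of 0.29. Ythdc2, an RNA helicase gene needed for meiosis, fell by 0.22 (SE 0.05, edgeR adjusted p = 0.0060). Another 16 of the 27 in the table were too low to be tested, which limits what the count covers. Of 7 tested genes that are silenced outside the germline, 1 rose and 0 fell, with a median of 0.04, and 11 were too low. Tdrd1, which acts in the piRNA pathway of male germ cells, was at 0.865, 0.931 and 0.786 CPM with clozapine and 0.530, 0.995 and 0.900 CPM with vehicle in the labelled knockout. In wild type Tdrd1 was at 0.420, 0.253 and 0.293 CPM with clozapine and 0.261, 0.0769 and 0.635 CPM with vehicle. It rose by 1.36 (SE 0.31, edgeR adjusted p = 0.011), although wild-type vehicle 4 lies above labelled knockout vehicle 2.

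**Figure D4:**
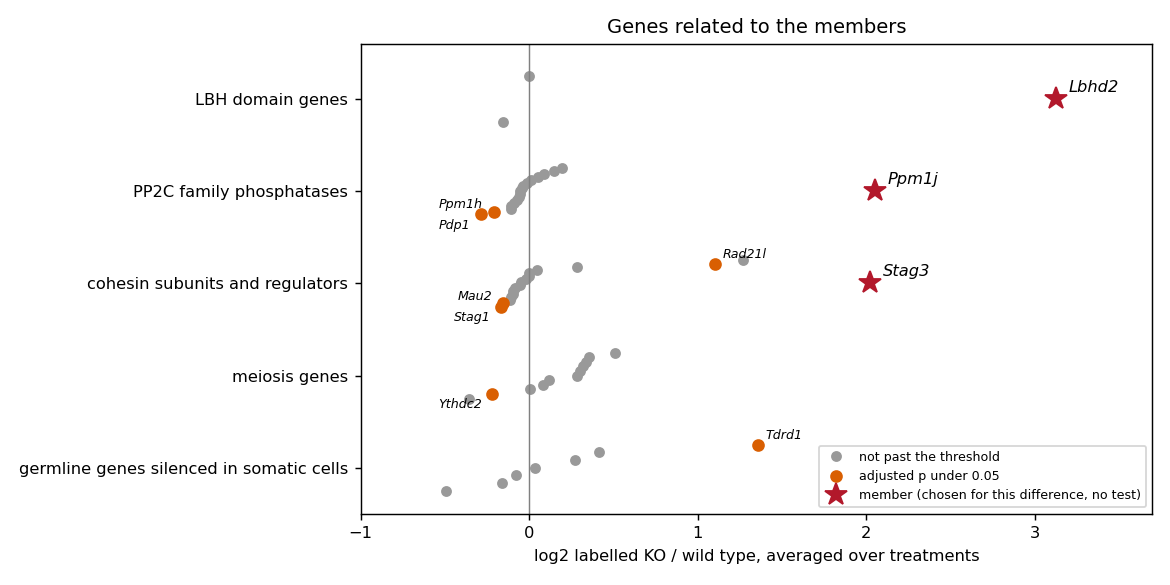
Log2 difference between labelled knockout and wild type (x axis), averaged over treatments, of the tested genes in 5 lists of relatives (rows), with the 3 members as stars. Tdrd1 at 1.36 and Rad21l at 1.10 passed the threshold upward, and 5 genes passed downward.

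Likeness to the members was measured by the gap, the lowest of the 6 labelled knockout libraries minus the highest of the 6 wild-type libraries in log2 CPM. Lbhd2 (2.60), Ppm1j (1.66) and Stag3 (0.81) have the 3 widest gaps of the 17286 genes tested. The members were chosen from these same values, so nothing is read from their places. The next widest gap, 0.79, is that of Emilin2, which encodes a glycoprotein of the extracellular matrix. Stag3 and Emilin2 thus stand on either side of the choice with nearly the same gap. Emilin2 was at 5.54 to 6.43 CPM in the labelled knockout and at 2.15 to 3.19 CPM in wild type. In order of gap follow Fam19a3 (0.79), Tcfl5 (0.75), St6gal2 (0.67), Dcaf12l2 (0.64), Palm3 (0.62), Plk5 (0.61), Dysf (0.60), Pcbd1 (0.56) and Necab2 (0.53).

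These 10 genes were chosen for that pattern, so their differences carry no test here, apart from that of Fam19a3, which its position beside Ppm1j had put among the neighbours. Tcfl5, a helix-loop-helix transcription factor of male germ cells, was at 0.592 to 1.07 CPM in the labelled knockout and 0.0871 to 0.346 CPM in wild type, a log2 difference of 1.72. Fam19a3 and Tcfl5 had differences over 1.5 and levels below those of the members. The other 8 genes had log2 differences of 0.88 to 1.09, and St6gal2, a sialyltransferase gene, had by far the highest level of the 10, at 84.0 to 101 CPM in the labelled knockout and 46.9 to 52.7 CPM in wild type. Fam19a3 is the one of the 10 that shares a chromosome with a member. Plk5 and Pcbd1 lie on chromosome 10, which carries Hdac2, and their distance from Hdac2 was not compared.

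**Figure D5:**
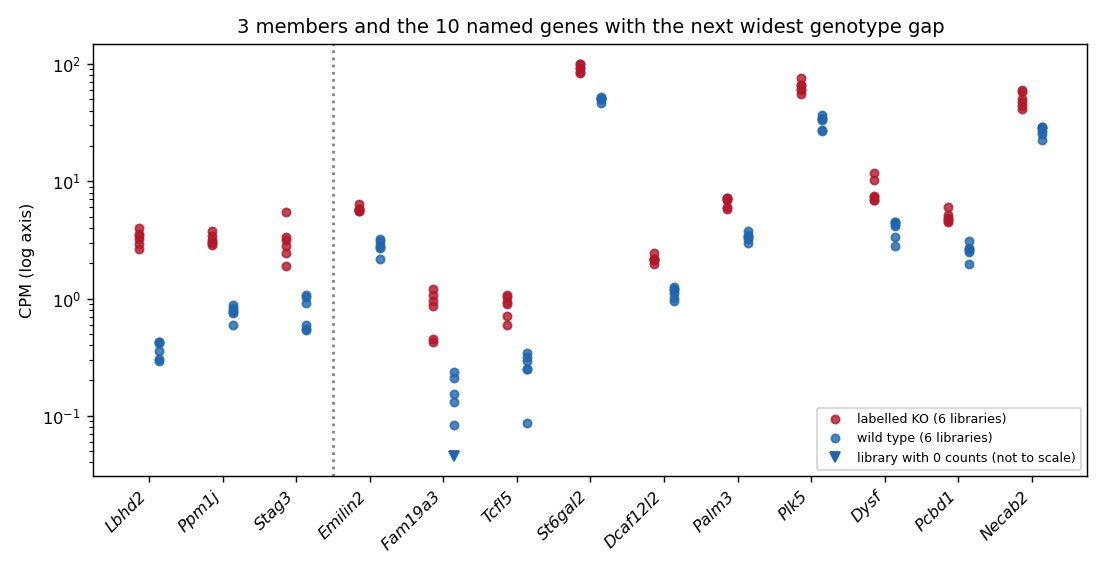
CPM on a log axis of the 3 members and of the 10 named genes with the next widest gap, in the 6 labelled knockout libraries and the 6 wild-type libraries (points). Lbhd2 and Ppm1j have the widest space between the genotypes, and the triangle marks the wild-type library with 0 counts of Fam19a3.

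Within a genotype the members were not shown to vary together. The 6 libraries of a genotype hold both treatments, so relations over them mix a difference between treatments with other variation. The permutations also exchanged libraries across treatments. Of 6 relations between pairs of members, each over the 6 libraries of a genotype, the strongest by Pearson's r was that of Ppm1j with Stag3 in wild type (r = 0.60, exact two-sided permutation p = 0.192, adjusted p = 0.772; Spearman's rho = 0.43, exact permutation p = 0.419, adjusted p = 0.629). Without the 2 libraries farthest from the median of Ppm1j its r was 0.030. The other 5 relations had r between -0.33 and 0.49, with exact permutation p values of 0.328 to 0.976, and rho between -0.086 and 0.60, with exact permutation p values of 0.242 to 0.919.

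Markers of the cell types in or near this tissue were compared between the genotypes, where 5.52% of all genes were called higher and 5.01% lower. Excitatory neurons (8 tested markers), interneurons (10), astrocytes (7), striatal neurons (6) and choroid plexus (4) had 0 called. Among 8 microglial markers 2 rose, a larger share than over all genes. The summed level of the 8 was 312 to 375 CPM in the labelled knockout and 310 to 350 CPM in wild type. Among 6 endothelial markers 2 fell, also a larger share, and the median log2 difference of the 6 was -0.17. Their summed level was 252 to 308 CPM in the labelled knockout and 259 to 297 CPM in wild type. Among 8 oligodendrocyte markers 1 fell (1361 to 1887 CPM in the labelled knockout and 1664 to 2187 CPM in wild type). Of 4 tested olfactory bulb markers Cdhr1 rose by 0.93 (SE 0.15, edgeR adjusted p = 0.0011), to 3.62 ± 0.78 CPM in the labelled knockout, against 1.89 ± 0.28 CPM in wild type (SD, n = 6 each). The summed level of all 6 bulb markers was 8.04 to 10.9 CPM in the labelled knockout and 6.88 to 8.53 CPM in wild type. Th, Doc2g and Sp8, the other tested bulb markers, were not called, and the median log2 difference of the 4 tested was 0.089. Eomes averaged 0.116 CPM in the labelled knockout and 0.027 CPM in wild type, and Tbx21 0.280 and 0.173 CPM, too low to be tested. The part of these shifts in the members' levels was not tested. Choroid plexus markers, summed over 6 genes, were at 4.91 to 8.57 CPM with clozapine and 7.63 to 10.4 CPM with vehicle in the labelled knockout, and at 3.97 to 4.54 CPM with clozapine and 4.74 to 60.3 CPM with vehicle in wild type. The upper value is wild-type vehicle 3, which stands far from the rest. With clozapine the 4 tested choroid plexus markers had median log2 changes of -0.69 in the labelled knockout, -0.71 in wild type and -0.63 averaged. Stag3 changed by -0.75, -0.84 and -0.80 in the same comparisons. Without wild-type vehicle 3 the Stag3 change in wild type was -0.79. The part of choroid plexus RNA in the Stag3 change was not tested. For clozapine, in either genotype or averaged, edgeR called 0 markers of any list and 0 genes of the 5 lists of relatives, where 1936 genes had an unadjusted p under 0.05 on average.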

How the data were processed

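The submitters' processing notes name STAR 2.5.1b, featureCounts and the mouse build GRCm38. What was deposited are estimated counts per gene, of which 7.13% to 7.64% per library are not whole. The values of the 3 members are whole in all libraries. Counts were rounded and tested in 1 fit of all 12 libraries with edgeR 4.0.16 in R 4.3.3 (filterByExpr, TMM scaling, robust quasi-likelihood test, BH adjustment over 17286 genes, threshold 0.05). SEs and intervals are those that match edgeR's p. CPM is the count over the TMM-scaled library size, and genes were named and placed with GENCODE M21 (GRCm38). Members and gene lists were chosen with earlier results of these data known. Named genes are the members, Hdac2, the 10 genes of widest gap (prior count 0.5, predicted genes left out), called or nearest genes within 500 kb, and called or lowest-p genes of each list, and others were named after their values were seen. Libraries carry a group and a number, and nothing says more about the animals, so each p-value reflects only library-to-library spread, which may be technical. Tests were checked on simulated counts. Alternatives were DESeq2 1.42.0, limma-voom 3.58.1, RLE scaling, other filters, unrounded counts, a replicate block, fits of 2 groups, and leaving out each library.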

Additional observations from a re-analysis of the deposited data

How the results depend on the processing

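No member's call for clozapine or the interaction changed in any fit without 1 library, and most other fits gave the same direction. Exceptions are Stag3 in the labelled knockout, past the threshold with no low-count filter (log2 change -0.75, adjusted p = 0.030) and with the replicate block (-0.88, adjusted p = 0.034), and Stag3 averaged, past it with DESeq2 (-0.80, adjusted p = 0.041) and no filter (-0.80, adjusted p = 0.0084). The cause was not tested. The replicate block turned the direction of values near 0, giving -0.13 for Lbhd2 with clozapine in wild type and -0.35 for the Stag3 interaction, and moved the Stag3 change in wild type to -0.53 (adjusted p = 0.647), against -0.84 without it. The labels do not say whether replicate numbers pair the libraries. Of 10 same-number pairs 1 had deviations correlated above 0.1 (range -0.080 to 0.123). Of 44 pairs with other numbers it was 4 (range -0.208 to 0.150). So few libraries cannot decide whether the numbers pair them. Under the block the genes called numbered 174 for clozapine in the labelled knockout (4 without it), 18 in wild type (141), 61 averaged (26), 12 for the interaction (113) and 1289 for genotype (1821).

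Leaving out 1 library gave log2 changes of -0.15 to 0.063 for Ppm1j with clozapine in the labelled knockout, -0.046 to 0.21 for Lbhd2 in wild type, -0.89 to -0.46 for Stag3 in the labelled knockout and -0.042 to 0.38 for its interaction, where the omitted labelled knockout vehicle library was 2 for the lower and 4 for the higher Stag3 values. Genes called then ranged from 0 (without labelled knockout clozapine 4) to 25 (without labelled knockout vehicle 4) for clozapine in the labelled knockout, 20 (without wild-type vehicle 3) to 219 (without labelled knockout vehicle 5) in wild type and 2 (without wild-type vehicle 3) to 24 averaged. They ranged from 13 (without labelled knockout clozapine 5) to 181 (without labelled knockout vehicle 4) for the interaction and from 1152 (without labelled knockout clozapine 3) to 1870 for genotype. For clozapine in the labelled knockout, DESeq2 called 274 genes, limma-voom 2, RLE 2, no filter 213 and the 2 groups alone 7. In wild type DESeq2 called 295, no filter 304 and the 2 groups alone 92. Averaged, DESeq2 called 160, limma-voom 7 and no filter 157, and for the interaction DESeq2 called 350 and no filter 302. DESeq2 gave the members no adjusted p for clozapine in the labelled knockout or the interaction, and Lbhd2 was filtered out of the fit of the wild-type groups alone. Without the 2 libraries farthest from the median, r turned to -0.62 for Lbhd2 and Ppm1j in the labelled knockout and to -0.51 for Lbhd2 and Stag3 in wild type. Depth limits the wild-type values, at 7 to 28 counts per member and library.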

Other observations

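Rec8, which encodes a meiotic cohesin subunit as Stag3 does, took separate high and low levels. It was high in all libraries of labelled knockout with clozapine and of wild type with vehicle, low in those of wild type with clozapine, and split in labelled knockout with vehicle. Rec8 was at 4.20, 2.75 and 4.30 CPM in labelled knockout with clozapine and at 0.653, 0.456 and 5.50 CPM in labelled knockout with vehicle. In wild type it was at 0.420, 0.169 and 0.543 CPM with clozapine and at 3.57, 3.61 and 4.44 CPM with vehicle. No library lies between 0.653 and 2.75 CPM, and Stag3 shows no such split in the same libraries. Averaged over treatments, Rec8 had a log2 genotype difference of 1.27 (SE 0.63) and did not pass (edgeR adjusted p = 0.253), nor did its interaction of 4.05 (SE 1.23, edgeR adjusted p = 0.212).

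A pair of germline genes were below the filter on low counts, yet uneven. Piwil1, of the piRNA pathway, had 3 to 21 counts in the labelled knockout libraries and 1 to 5 in the wild-type libraries. Mael, a germline gene of the same pathway, had 18 counts in wild-type clozapine 3 and 0 to 4 counts in each of the other libraries. Neither Piwil1 nor Mael was tested. Piwil2, also of the piRNA pathway, was tested and went the other way from Piwil1. It was at 0.869 ± 0.188 CPM in the labelled knockout and 1.25 ± 0.33 CPM in wild type (SD, n = 6 each). Its log2 difference was -0.49 (SE 0.17) and did not pass (edgeR adjusted p = 0.074). All of these genes were named after their values were seen.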
